A study of Homo sapiens with 24 samples.

Results

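Developmental transcription factors are the DNA-binding proteins that set cell identity along the body axis and in the neural crest, and neuroblastoma, a childhood tumor of the sympathetic nervous system, carries many of them from its embryonic origin. The set described here holds 88 factors of the HOX, forkhead, SOX, POU, sine oculis, T-box, GATA, KLF, DLX, NKX, LHX, PAX, ZIC, RUNX, TFAP2, HES, HEY and related families, 1 probe per gene, out of 43291 probes on the array. The factors were chosen by symbol from the study's lists of genes that differed at least 2-fold between FOXP1 and GFP cells in 3 lines, with FOXP1 itself left out. The choice by symbol also took in HOXA11S and MSX2P, which were not checked to encode DNA-binding proteins and are counted as factors. Of the 88, 47 were on the list of IMR-32, 41 on that of CHP-212 and 18 on that of SK-N-BE(2). A single list held 71 of them, 16 were on 2 lists, and HOXB9 was the 1 factor on all 3. Because the lists selected on the difference between FOXP1 and GFP cells, that difference in a line whose list holds a factor is given as a description, with no test. The IMR-32 and SK-N-BE(2) lists were held only in part, with 373 and 213 of their rows not used, so "not listed" means absent from the rows used.

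FOXP1 is a winged-helix repressor of the forkhead family, and the study asked how its expression from a transgene affects neuroblastoma cells. The 3 lines, CHP-212, SK-N-BE(2) and IMR-32, are established human neuroblastoma lines. In each, a retrovirus carried FOXP1 or, as the control, GFP (green fluorescent protein) behind a doxycycline-inducible promoter, and both kinds of culture were polyclonal. GFP cells served as the control because the promoter leaked without the drug. RNA was taken at 0, 12, 24 and 72 h of induction, which gave 6 groups of 4 one-colour arrays and 24 arrays in all. The 4 arrays of a group were time points of 1 culture and not separate cultures, so p-values measure the spread between those arrays, and a difference between FOXP1 and GFP cells cannot be told apart from a difference between 1 culture and another. RNA came from whole cultures, in which fewer cells with a transcript and less transcript per cell cannot be told apart.

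Homeobox and forkhead factors bind short motifs in the regulatory DNA of other factors as well as their own, T-box and GATA factors direct heart, gut and mesoderm fates, and AP-2 and SOX factors act in the neural crest. TFAP2B, an AP-2 factor of sympathetic neurons, belongs to the sympathoadrenal program, while RUNX and KLF factors are better known from mesenchyme, blood or vessels. The promoters of 6 factors are shown, since FOXP1 binds DNA through its forkhead domain. GATA6, TFAP2B, TBX1, FOXC1 and NR0B1 are factors whose levels set cultures or lines apart, and DLX2, too dim to test in CHP-212, is shown because its window holds a forkhead match. Each is the 250 bases before the RefSeq start of the gene on GRCh38.p14, read 5' to 3' on the gene's strand, in lower case with a forkhead match (TGTTTAC or TGTTTGC) or a CACGTG E-box on either strand in capitals. The window of GATA6, the factor with the highest difference in IMR-32, is chr18:22169339-22169588 (plus strand), and that of TBX1, a T-box factor of the pharynx with opposite differences in IMR-32 and CHP-212, is chr22:19756453-19756702 (plus strand). TFAP2B has chr6:50818621-50818870 and FOXC1 chr6:1609665-1609914 (plus strand both). DLX2, a homeobox factor of forebrain and jaw, has chr2:172102901-172103150 (minus strand), and NR0B1, an orphan nuclear receptor of adrenal and gonad whose levels separate the lines, has chrX:30309391-30309640 (minus strand).
GATA6: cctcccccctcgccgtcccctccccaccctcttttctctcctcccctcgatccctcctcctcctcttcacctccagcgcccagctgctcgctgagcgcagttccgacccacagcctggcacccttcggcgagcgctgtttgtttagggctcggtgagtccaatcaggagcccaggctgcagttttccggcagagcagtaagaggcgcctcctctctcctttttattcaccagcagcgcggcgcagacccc
TFAP2B: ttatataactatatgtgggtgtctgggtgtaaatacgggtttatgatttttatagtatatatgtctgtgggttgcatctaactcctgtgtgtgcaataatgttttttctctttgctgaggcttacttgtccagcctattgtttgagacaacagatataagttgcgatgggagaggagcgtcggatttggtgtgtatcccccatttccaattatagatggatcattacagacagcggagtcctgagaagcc
FOXC1: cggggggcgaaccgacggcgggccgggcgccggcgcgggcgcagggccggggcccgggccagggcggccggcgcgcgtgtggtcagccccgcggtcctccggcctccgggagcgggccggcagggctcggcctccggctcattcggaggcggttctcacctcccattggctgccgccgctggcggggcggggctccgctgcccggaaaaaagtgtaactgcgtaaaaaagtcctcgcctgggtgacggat
TBX1: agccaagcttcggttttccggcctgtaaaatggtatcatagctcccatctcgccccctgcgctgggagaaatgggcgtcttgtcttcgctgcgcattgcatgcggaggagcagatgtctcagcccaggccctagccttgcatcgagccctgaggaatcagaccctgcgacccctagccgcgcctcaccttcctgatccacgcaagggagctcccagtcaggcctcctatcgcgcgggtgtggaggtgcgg
DLX2: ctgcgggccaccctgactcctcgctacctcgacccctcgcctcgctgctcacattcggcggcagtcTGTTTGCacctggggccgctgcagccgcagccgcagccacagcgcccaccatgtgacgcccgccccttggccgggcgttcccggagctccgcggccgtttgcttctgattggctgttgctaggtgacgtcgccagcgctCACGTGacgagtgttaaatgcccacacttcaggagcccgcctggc
NR0B1: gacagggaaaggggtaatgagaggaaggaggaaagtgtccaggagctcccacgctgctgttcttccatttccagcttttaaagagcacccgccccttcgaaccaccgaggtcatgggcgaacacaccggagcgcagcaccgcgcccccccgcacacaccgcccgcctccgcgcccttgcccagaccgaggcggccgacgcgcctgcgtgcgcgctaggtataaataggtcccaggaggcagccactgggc
DLX2 held 1 TGTTTGC and 1 CACGTG, and the other 5 windows held none of these letters in that order. Other forms of a forkhead site were not searched, so a window without a match is not shown to lack such a site. RefSeq entries were found for 59 factors, 88 entries in all, and not for the other 29. TGTTTAC stood in 2.27% of these entries (those of SOX12 and SOX6) and in 2.98% of all 35116 entries, and TGTTTGC in 2.27% (DLX2 and KLF8) and 3.23%. CACGTG, an E-box read by helix-loop-helix factors, stood in 10.2% of the factors' entries and 6.34% of all, among them ZIC1, HOXD10, HOXD11, KLF4, KLF11 and ETV1. A window held a median of 17 CpG pairs, from 0 to 43, against a median of 11 in all entries.

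Values are the log2 processed signal of a probe minus the array's 75th percentile of that signal, called the log2 level, so a level of 0 equals that percentile. Levels are compared between arrays for 1 probe, not between probes. Arrays of 2 kinds stood apart. On the CHP-212 slide of 0 and 12 h, 53.9% to 60.4% of probes were well above background, against 78.0% to 81.5% on its slide of 24 and 72 h and 72.8% to 82.3% in the other lines. On the SK-N-BE(2) array labelled FOXP1 at 24 h, 2060 of 43250 probes stood apart above the other 3 arrays of the group (Dixon's rule), against 71 to 230 on those 3, and the next highest count on any array was 1389, in IMR-32 FOXP1 cells at 24 h. The FOXP1 probe served as the check of the labels. Its log2 level was 2.60, 2.76, 2.66 and 2.38 at 0, 12, 24 and 72 h in IMR-32 FOXP1 cells against 1.05, 1.19, 1.39 and 1.18 in GFP cells, and 2.81, 3.28, 3.00 and 2.94 against 0.77, 1.21, 1.08 and 1.05 in CHP-212. In SK-N-BE(2) it was 2.97, 2.84, 2.63 and 2.73 on the arrays labelled FOXP1 and 3.00, 3.30, 2.87 and 2.81 on the GFP arrays, so this probe did not separate the labelled cultures there, and directions in this line are those of the labels. Of the sympathoadrenal neuroblast markers, 7 of 13 had a probe. All 7 were well above background on 8 of 8 arrays in IMR-32 and SK-N-BE(2), and 3 of them in CHP-212. Markers of other cell types were not all dim. The mesenchymal marker DCN was above background on 8 of 8 arrays of every line. The endothelial marker KDR was above it on 4 CHP-212 arrays and on 6 arrays of each other line. PTPRC, a leukocyte marker, and the mesenchymal PRRX1 were above it on 0 arrays. The endothelial PECAM1 and the Schwann cell marker CDH19 were above it on at most 1 array of a line.

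Probes of 23 factors were well above background on all 24 arrays, 59 on at least 12, and 13 on 5 or fewer. TBX5, a T-box factor of the heart and forelimb, was above background on 0 arrays. Only factors whose probe exceeded background clearly (the scanner software's mark for this) on 4 or more of a line's 8 arrays were tested there, and one was called if limma gave an adjusted p under 0.05 (Benjamini-Hochberg over all probes tested) with at least a 2-fold difference. By that rule 12.2% of the 33803 probes tested were called in IMR-32 (6.34% higher and 5.86% lower in FOXP1 cells), 3.03% of 32953 in CHP-212 (1.94% higher, 1.09% lower) and 0.72% of 34042 in SK-N-BE(2) (0.426% higher, 0.294% lower). Of the 47 factors on the IMR-32 list, 7 were too dim to test, 14 were higher and 23 lower in FOXP1 cells, and 3 were not called. On the CHP-212 list, 17 of 41 were too dim, 13 were higher, 2 lower and 9 not called. On the SK-N-BE(2) list, 9 of 18 were too dim, 1 was higher, 1 lower and 7 not called. Among factors not listed for a line, 7 of the 24 tested were called in IMR-32, 0 of 28 in CHP-212 (limma, with 8 at an unadjusted p under 0.05, while the methods' t-test called 11 of all 52 factors after Benjamini-Hochberg) and 2 of 51 in SK-N-BE(2). Being on a list or off it was set by the same difference, so nothing is read from these counts.

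**Figure D1:**
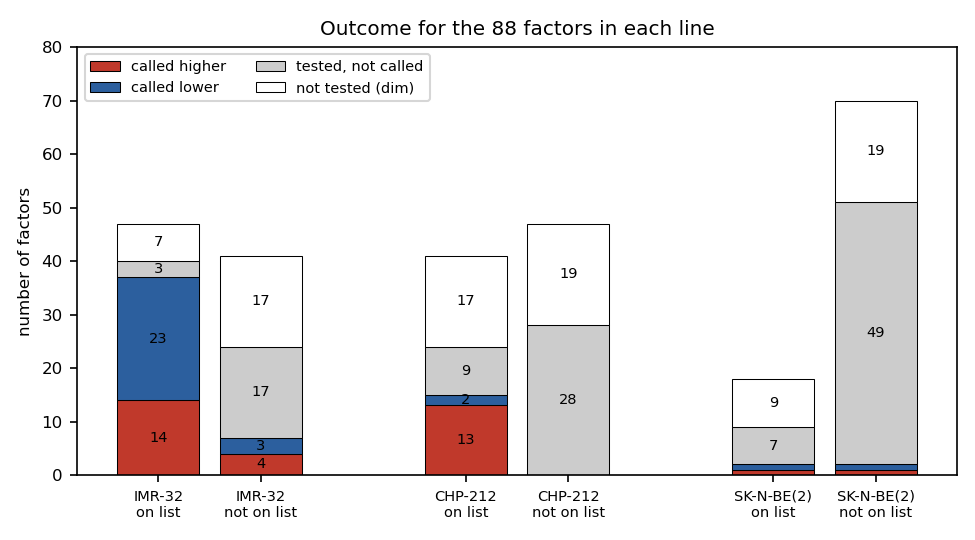
The number of factors (vertical axis) by outcome in each line, for those on the line's list and those not in the rows used, with bar sections for called higher or lower in FOXP1 cells, tested but not called, and too dim to test. IMR-32 holds the most calls, 37 on its list and 7 off it, and SK-N-BE(2) the fewest, 2 and 2.

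In IMR-32, FOXP1 cells had high levels of GATA6, FOXF1 and TFAP2B and low levels of TBX1, FOXC1, POU3F2 and LHX2. Of the 64 factors tested, FOXP1 cells had 18 called higher and 26 lower, and 37 of these 44 were on the list chosen for this difference, so the counts are a description. With the normexp background correction 19 were called, 11 higher and 8 lower. GATA6, a zinc-finger factor of endoderm and heart, had log2 levels of 1.09, 1.06, 1.20 and 1.24 at 0, 12, 24 and 72 h in FOXP1 cells and of -5.71, -5.70, -5.48 and -5.64 in GFP cells. All 4 FOXP1 arrays were high and all 4 GFP arrays low, with means of 1.15 ± 0.08 and -5.63 ± 0.11 (SD, n = 4), a 110-fold difference. FOXF1, a forkhead factor of gut and lung mesenchyme, stood at 0.96, 0.59, 0.68 and 0.65 against -4.79, -4.88, -5.91 and -6.02. The groups did not overlap, and the means of 0.72 ± 0.16 and -5.40 ± 0.65 (SD, n = 4) lay 69.5-fold apart. TFAP2B reached 4.30, 4.35, 4.80 and 4.56 in FOXP1 cells and -1.95, -1.42, -0.60 and -0.67 in GFP cells, also without overlap, a 50.7-fold difference.

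The factors that were higher in IMR-32 FOXP1 cells came from several families. KLF11 and KLF2, zinc-finger factors of the Krüppel-like family, differed by 2.71 and 3.02 on the log2 scale, with KLF2 above background on 2 of 4 GFP arrays, and KLF11 was steady in FOXP1 cells, from -2.89 to -2.82, while KLF2 ran from -4.26 at 72 h to -2.36 at 0 h. POU4F1, a factor of sensory neurons, was at 1.68, 1.58, 2.15 and 1.81 in FOXP1 cells and between -0.74 and -0.19 in GFP cells, and POU4F3, its relative of the inner ear, differed by 2.20, with 3 of 4 GFP arrays above background. HEYL, a Notch target, differed by 2.23, RUNX1, a factor of blood and sensory neurons, by 1.54, ZEB2, a repressor in epithelial-mesenchymal transition, by 1.32, and TBX3 by 1.29. TBX3 is the exception to the separation of the groups: its FOXP1 arrays spanned -1.74 to -0.88 and its GFP arrays -3.41 to -1.59. Of the HOX factors, which set position along the body axis, HOXD10 differed by 1.31, and HOXA10 by at least 1.32-fold, since no GFP array showed HOXA10 well above background.

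Factors that were lower in IMR-32 FOXP1 cells included TBX1, at -5.63, -4.83, -5.77 and -5.98 in FOXP1 cells and -0.40, -0.25, -0.64 and -0.66 in GFP cells. All 4 FOXP1 arrays were low, and the groups lay 33.5-fold apart without overlap. FOXC1, a forkhead factor of eye and mesenchyme, was at -2.81, -2.84, -3.08 and -3.20 against 1.45, 2.09, 1.51 and 1.53, a 24.8-fold difference. POU3F2, a neuronal POU factor, ranged from -4.95 to -4.32 in FOXP1 cells and from -0.19 to 0.03 in GFP cells, a log2 difference of -4.55. Those 3 factors were well above background on all 8 arrays. KLF4, a pluripotency factor, differed by -3.31 (-5.77 to -5.02 against -2.48 to -1.62), SOX9, a factor of neural crest and cartilage, by -3.10, and the LIM homeobox factors LHX2 and LHX6 by -4.74 and -2.82, with LHX2 above background on 3 of 4 FOXP1 arrays. RUNX3 differed by -4.83 and ZIC1, a zinc-finger factor of cerebellum and neural crest, by -3.81, but 2 and 1 of their 4 FOXP1 arrays were well above background. SIX3, a forebrain factor, differed by -2.84 and SIX4 by -1.22. Near the threshold of the lists, FOXO1 (-1.01) and SOX12 (-1.02) lay just inside the 2-fold limit, and NR4A1 (-0.99), which was also listed, just outside it here. Of factors not listed, LHX9 (-1.05) and SOX4 (1.15) lay just past that limit.

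**Figure D2:**
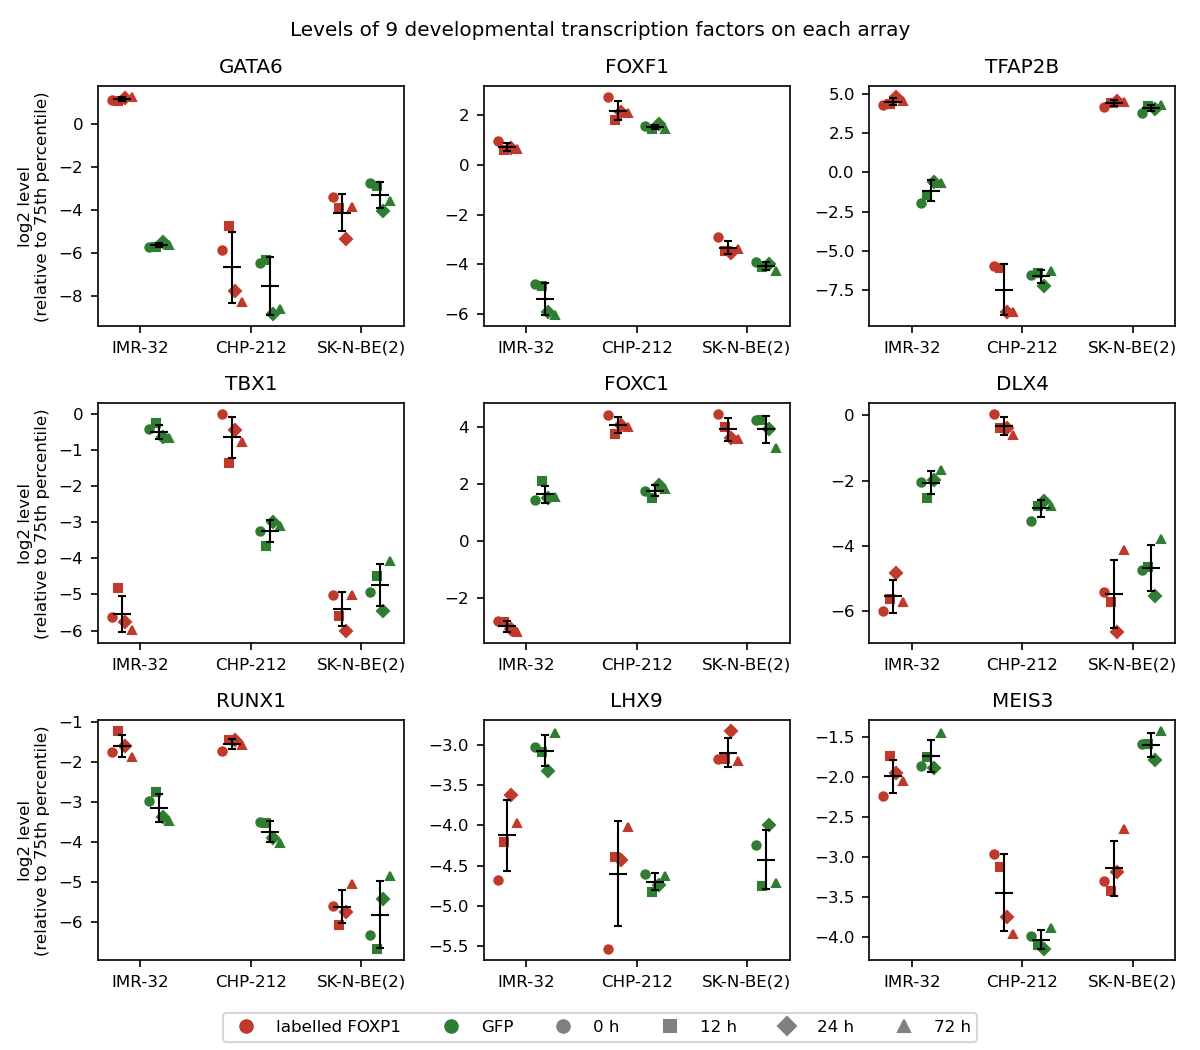
Log2 level (vertical axes, relative to the 75th percentile of the array) of 9 factors on each of 24 arrays, by line, with symbols for the time points and black bars for the group mean ± SD (n = 4). GATA6, FOXF1 and TFAP2B are high in IMR-32 FOXP1 cells, TBX1, FOXC1 and DLX4 are low there and high in CHP-212 FOXP1 cells, and on the SK-N-BE(2) arrays labelled FOXP1 LHX9 is high and MEIS3 low.

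Of the 7 called factors that were not listed for IMR-32, 4 were higher and 3 lower in FOXP1 cells. GATA4, a cardiac partner of GATA6, was at -1.03, -0.63, -0.82 and -0.69 in FOXP1 cells and -3.29, -3.33, -3.65 and -3.46 in GFP cells. FOXP1 arrays were all higher, 6.23-fold (log2 difference 2.64, SE 0.16, limma adjusted p = 1.8e-06, from 8.04e-09 to 0.00691 over the alternatives). NR3C2, the mineralocorticoid receptor, differed by 1.30 (limma adjusted p = 0.0015, from 0.000412 to 0.328) and SOX4, a SOX factor of progenitors, by 1.15 (limma adjusted p = 0.0012, from 0.000513 to 0.0775).
DLX4, a distal-less homeobox factor, was lower, at -6.00, -5.62, -4.82 and -5.73 against -2.04, -2.54, -1.99 and -1.68 (difference -3.48, SE 0.27, limma adjusted p = 1.2e-05, from 6.62e-07 to 0.227). FOXP1 arrays were all below GFP arrays, 11.1-fold on average. SNAI1, a zinc-finger repressor of epithelial genes, differed by -1.35 (limma adjusted p = 0.00041, from 0.000106 to 0.0223) and LHX9 by -1.05 (limma adjusted p = 0.0080, from 0.00397 to 0.759). LHX9 lay under the 2-fold limit on the later slide (-0.72), when the FOXP1 array of 0 h was left out (-0.87) and when the 72 h GFP array was (-0.98). DLX4, NR3C2 and LHX9 were not called with the normexp background correction, with adjusted p of 0.227, 0.101 and 0.759 in limma. Their differences there were -1.65, 1.10 and -0.33. With all 24 arrays in 1 fit NR3C2 was not called either, at an unchanged 1.30 (limma adjusted p = 0.328). These 7 were chosen for their difference in CHP-212 or SK-N-BE(2), and whether the IMR-32 rows not used hold them is not known here.

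At 0 h, before induction, 36 of the 44 called factors differed at least 2-fold. The FOXP1 probe, too, was already higher in FOXP1 cells at 0 h, at the levels given above. The 44 factors were called on a mean that holds the 0 h arrays, so the count of 36 is a description. Neuroblast markers differed as well: 5 of 7 were called higher in IMR-32 FOXP1 cells, namely the catecholamine enzymes DBH (difference 3.85) and TH (3.33), the granule protein CHGB (2.82), the receptor RET (2.97) and the neuronal STMN2 (1.66), while ELAVL4 (-0.70) and NPY (-0.77) were not called. Over all probes tested, 6.34% were called higher, and these markers, too, could be named only because a list held them. The part of these markers in the factors' difference was not tested. Of the markers of other cell types, the mesenchymal and endothelial lists had 1 testable gene each there, DCN (-0.26) and KDR (0.96, at an unadjusted p under 0.05), neither of them called, and the Schwann cell and leukocyte lists had 0. PRRX1, CDH19 and PTPRC were above background on 0 IMR-32 arrays.

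In CHP-212, FOXP1 cells had high levels of TBX1, FOXC1, DLX4 and RUNX1. Of the 52 tested, 13 were called higher and 2 lower, all 15 on the list chosen for this difference, so the counts are a description. TBX1 was at 0.01, -1.36, -0.43 and -0.78 in FOXP1 cells and -3.23, -3.65, -2.98 and -3.10 in GFP cells. All 4 FOXP1 arrays were above all 4 GFP arrays, 6.06-fold on average, with a difference of 2.77 on the slide of 0 and 12 h and 2.43 on that of 24 and 72 h. FOXC1 stood at 4.44, 3.76, 4.08 and 4.01 against 1.76, 1.52, 1.98 and 1.84, a 4.92-fold difference (2.46 and 2.14 on the slides). DLX4 was at 0.04, -0.39, -0.39 and -0.60 against -3.24, -2.78, -2.62 and -2.77, a 5.73-fold difference (2.84 and 2.20). The groups of these factors did not overlap. Of the 15 called factors, 15 differed at least 2-fold on the slide of 0 and 12 h and 11 on that of 24 and 72 h. The later slide's difference was 0.44 to 1.29 times the earlier one.

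RUNX1 was at -1.73, -1.46, -1.44 and -1.57 in CHP-212 FOXP1 cells and -3.49, -3.53, -3.90 and -4.03 in GFP cells, 4.55-fold apart (1.91 and 2.46 on the slides). Its groups did not overlap. TBX15, FOXD1, SNAI1, FOXL2, ZIC1, SOX4 and TFAP2C were called higher with differences from 1.19 (TFAP2C) to 2.02 (TBX15), and SIX4 (-1.10) and FOXE1 (-1.07) lower. The calls lower were lost when the GFP array of 0, 12 or 72 h or the FOXP1 array of 12 or 24 h was left out. The methods' t-test with Benjamini-Hochberg called 11 higher and 0 lower. FOXD1 and FOXE1 were well above background on 4 and 5 of the 8 arrays and TBX15 on 4.
DLX2 was too dim to test: 3 FOXP1 arrays and 0 GFP arrays were well above background, and FOXP1 cells were at least 2.87-fold higher. HEY1, a Notch target, fell with time in FOXP1 cells, at 3.19, 1.76, 1.62 and 0.97, against 0.37, 0.22, 0.37 and 0.09 in GFP cells, and its difference of 1.62 was not called. NR0B1, whose levels of 3.84, 3.00, 3.09 and 2.99 lay below 4.26, 4.10, 4.25 and 4.29, differed by -0.997 and was not called either. On the slide of 0 and 12 h alone limma called 0 of 37 factors, with 17 at an unadjusted p under 0.05, and on that of 24 and 72 h alone it called 10. Of the neuroblast markers, 3 of 7 were called higher, DBH (2.07), ELAVL4 (2.40) and NPY (2.32), while RET (-1.01), TH (0.23), CHGB (0.50) and STMN2 (0.39) were not called, and the matrix protein DCN, a mesenchymal marker, was lower (-1.46). Over all probes tested, 1.94% were called higher in CHP-212, and the part of these markers was not tested.

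FOXP1 and GFP cells were set apart by some of the same factors in IMR-32 and CHP-212, with the same or the opposite sign. Of 48 factors tested in both lines, 9 were called in both, against 0.999% of the 31446 probes tested in both, and the factors were chosen for such differences. Over all probes, 184 of the 314 called in both had the same sign and 130 the opposite sign. The sign was the same for 4 of the 9 factors, such as RUNX1 and SOX4 (higher in FOXP1 cells) and SIX4 (lower). The CHP-212 call of SIX4 was lost when some single arrays were left out. The factors TBX1, FOXC1, DLX4, SNAI1 and ZIC1 were lower in IMR-32 FOXP1 cells and higher in CHP-212 FOXP1 cells. In these factors the GFP cells can be read beside the FOXP1 cells. FOXC1 stood at 1.65 ± 0.30 in IMR-32 GFP cells and 1.77 ± 0.19 in CHP-212 GFP cells, against -2.98 ± 0.19 and 4.07 ± 0.28 in the FOXP1 cells (SD, n = 4 each). ZIC1 was at -4.29 ± 0.45 and -2.22 ± 0.31 in the GFP cells and at -8.11 ± 1.13 and -0.96 ± 0.23 in the FOXP1 cells. Across 3 lines, 37 factors were called in none, 15 of which were tested in none, 40 in 1 line, 10 in 2 and 1 in all 3.

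**Figure D3:**
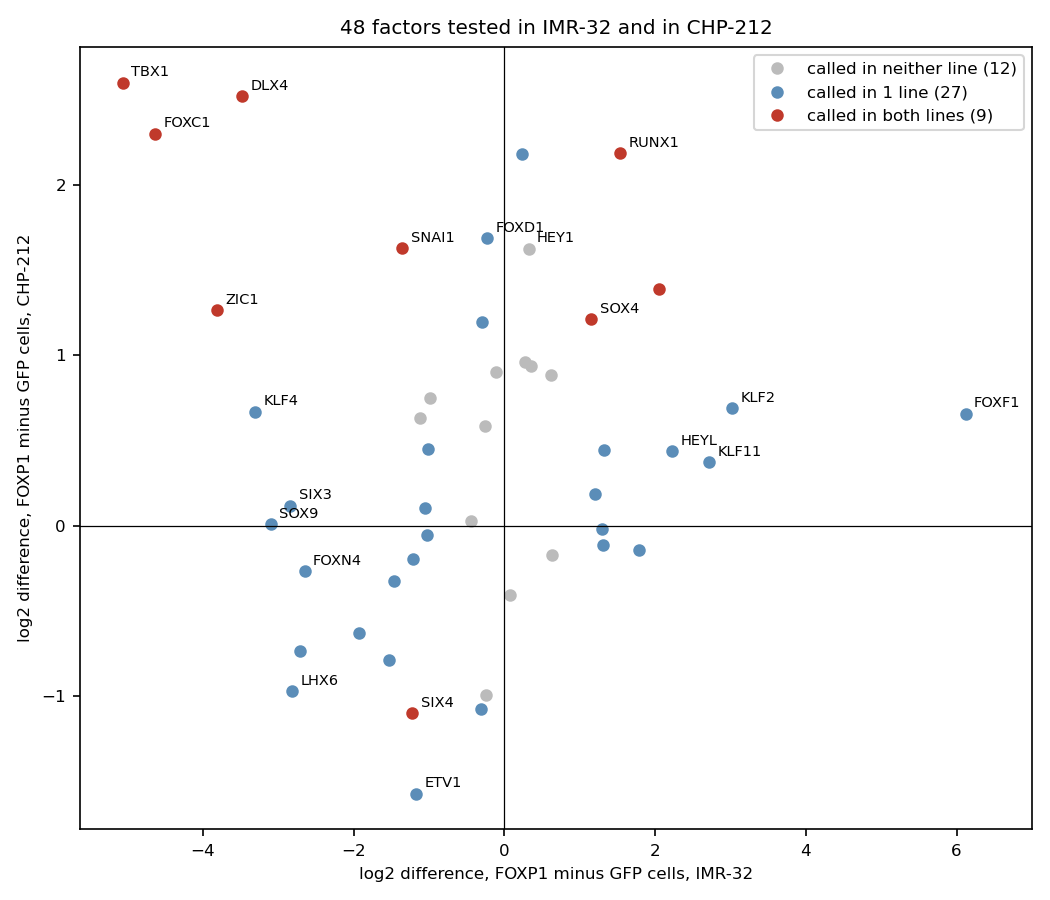
Each point is 1 of 48 factors tested in both lines, placed by its log2 difference of FOXP1 minus GFP cells in IMR-32 (horizontal axis) and CHP-212 (vertical axis), and coloured by the number of these lines in which it was called. Of the 9 called in both, 5 lie at the upper left, lower in IMR-32 and higher in CHP-212.

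In SK-N-BE(2), where the FOXP1 probe did not separate the cultures, 4 of 60 factors tested were called, and 5 with the time point as a replicate block, which raised the calls over all probes from 245 to 477. Leaving out any 1 of 5 arrays, those of GFP cells at 0 and 12 h and those labelled FOXP1 at 0, 12 and 72 h, brought the called factors from 4 to 2.
SIX4 differed by 0.20 in SK-N-BE(2), against -1.22 in IMR-32 and -1.10 in CHP-212. On chromosome 17, DLX4 differed by -3.48 in IMR-32 and 2.52 in CHP-212 where its neighbour DLX3 differed by 0.35 and 0.94. In SK-N-BE(2) DLX4 and DLX3 differed by -0.81 and -0.49, neither of them called. On chromosome 2, the neighbours HOXD11 and HOXD10 differed by -0.07 and -0.11 in CHP-212. In SK-N-BE(2) they differed by 1.28 and 0.81, neither of them called, with HOXD11 well above background on 4 of 8 arrays. Without the 24 h array labelled FOXP1 these differences were 0.67 and 0.49. In IMR-32 HOXD10 differed by 1.31, and HOXD11 was too dim to test.

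Of the factors on the SK-N-BE(2) list, LHX9, a LIM homeobox factor, was at -3.18, -3.18, -2.82 and -3.19 on the arrays labelled FOXP1 and -4.24, -4.76, -3.99 and -4.71 on the GFP arrays, a difference of 1.33. MEIS3, a partner of HOX factors, was at -3.30, -3.42, -3.18 and -2.65 against -1.59, -1.59, -1.79 and -1.42, a difference of -1.54. In both, the groups did not overlap, and without the 24 h array labelled FOXP1 the differences were 1.24 and -1.53. SOX2 (1.45), a neural progenitor factor, and DLX5 (1.26) were higher at each time point but not called.
Many of the remaining listed factors were high on 1 array alone. On the 24 h array labelled FOXP1, 11 of the 18 stood at least 2-fold above the other 3 arrays of that group. The list was chosen for a difference that includes this array, and no share over all probes was taken by this rule. Nothing is therefore read from that count. POU2F2, a POU factor of B cells, was at -4.92, -4.94, -1.93 and -4.15, TFAP2E at -4.53, -5.10, -1.61 and -4.67, and NEUROD4, a neuronal helix-loop-helix factor, at -6.66, -7.03, -3.07 and -7.57. In each of these the third value, of 24 h, was the highest. Without that array the difference of POU2F2 went from 1.56 to 0.87, of TFAP2E from 0.56 to -0.23 and of NEUROD4 from 0.42 to -0.58, and 3 factors were called in place of 4.

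**Figure D4:**
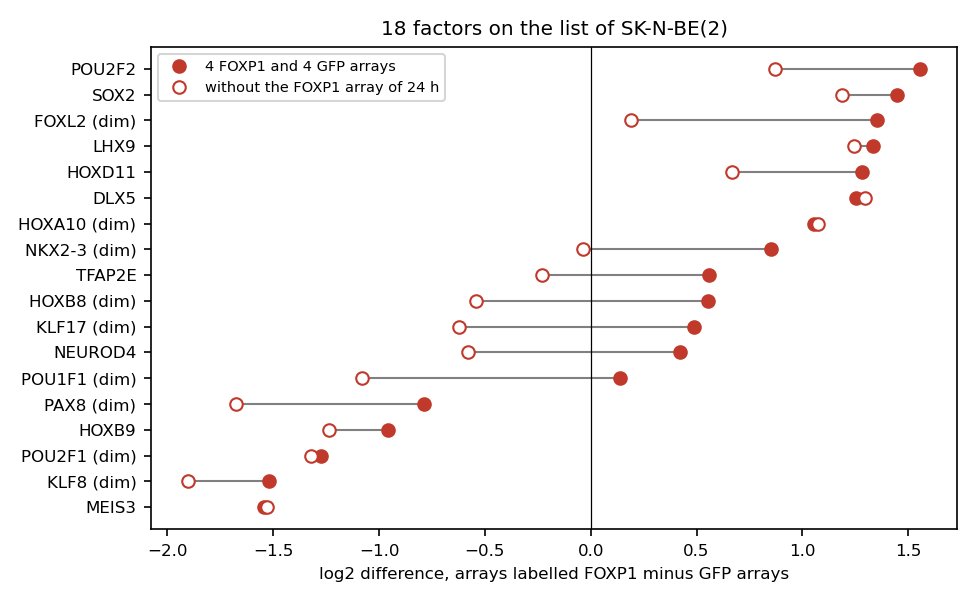
Log2 difference (horizontal axis) of arrays labelled FOXP1 minus GFP arrays for the 18 factors on the SK-N-BE(2) list, over all 8 arrays (filled) and without the 24 h array labelled FOXP1 (open), with "dim" for factors too dim to test. POU1F1, FOXL2, KLF17, HOXB8 and NEUROD4 move by over 1, while LHX9, MEIS3, DLX5, HOXA10 and POU2F1 move by less than 0.1.

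The 17 factors on 2 or 3 lists were not always measurable where they were listed. GATA6 was on the list of CHP-212 as well, where FOXP1 cells ran from -8.27 to -4.73 and GFP cells from -8.80 to -6.30, overlapping and too dim to test. POU4F1, bright in IMR-32, ranged from -7.44 to -5.81 over the 8 CHP-212 arrays, 2 of them above background. HOXB9, on all 3 lists, was above background on 1 array of IMR-32, 3 of CHP-212 and 4 of SK-N-BE(2), with differences of -0.73, -1.29 and -0.96 and overlapping groups. NKX2-3 in both CHP-212 and SK-N-BE(2), TBX4 in CHP-212 and POU2F1 in IMR-32 and SK-N-BE(2) were too dim to test as well. ETV1, an ETS factor, was at -5.99, -5.99, -6.32 and -5.91 against -5.09, -4.69, -4.84 and -4.91 in IMR-32 (-1.17), and in CHP-212 at -5.02, -2.42, -3.78 and -1.67 against -1.91, -1.67, -1.80 and -1.22 (-1.57, not called). The IMR-32 groups of ETV1 did not overlap and the CHP-212 groups did, but with the normexp background correction the IMR-32 difference turned to 0.15. POU3F4 differed by -1.93 in IMR-32 and by -0.63 in CHP-212, where the groups overlapped.

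Other lists of related genes, limited to those with a probe that could be named, gave these counts of calls. Of adrenergic-type neuroblastoma factors (5 of 19 with a probe), EYA1 and TFAP2B were higher and DACH1 and SIX3 lower in IMR-32 FOXP1 cells, while CHP-212 had 2 higher, DACH1 being 1 of them. For SK-N-BE(2), limma called 0 of these 5, with 2 at an unadjusted p under 0.05. DACH1, a partner of sine oculis factors, differed by -3.11 in IMR-32 and 3.22 in CHP-212. Of mesenchymal-type factors (11 of 23), 3 were higher (RUNX1, FOSL2 and ZEB2) and 6 lower in IMR-32, such as RUNX3, SIX4, MAFF, KLF4 and SOX9, while CHP-212 had 1 higher (RUNX1) and 1 lower (SIX4), and SK-N-BE(2) 1 higher. Of neural crest factors (5 of 13), 1 was higher and 3 lower in IMR-32, and SNAI1 and ZIC1 were higher in CHP-212. Of the Notch pathway (6 of 15), HEYL was higher and HES6 and the ligand JAG1 (-2.83) lower in IMR-32, and JAG1 (1.66) was higher in CHP-212. These genes, too, could be named only because a list held them.
Of the HOXC genes, 6 of 9 had a probe and 4 were bright enough to test in IMR-32. HOXC8 passed that filter through its 4 FOXP1 arrays alone and HOXC6 on 5 of 8 arrays, so nothing is read from how many were called. HOXC9 was at 1.88 ± 0.28 in FOXP1 cells and -3.80 ± 0.23 in GFP cells, HOXC8 at -3.20 ± 0.18 and -8.53 ± 0.54 (SD, n = 4), with 0 of 4 GFP arrays above background for HOXC8, and HOXC5 differed by 2.35, with 7 of 8 arrays above background. In SK-N-BE(2), HOXC9 was at 3.64 ± 0.11 and 3.65 ± 0.20 (SD, n = 4), within the spread of the arrays.

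The lines themselves were compared on the mean of both cultures, which holds the arrays on which the lists chose the factors, so a factor's difference between FOXP1 and GFP cells enters it. Each line lay on 2 slides of its own, so line and slide cannot be told apart. Of 73 factors tested, 50 differed between IMR-32 and CHP-212 (23 higher and 27 lower in IMR-32), against 31.4% of all 36231 probes tested (14.1% higher, 17.3% lower). Between IMR-32 and SK-N-BE(2) 42 differed (23 higher, 19 lower), against 24.5% (11.1% and 13.5%), and between CHP-212 and SK-N-BE(2) 42 (23 higher and 19 lower in CHP-212), against 31.2% (15.8% and 15.4%). All 3 contrasts were called for 18 factors, 2 for 37 and 1 for 6. The highest mean lay in IMR-32 for 23 factors, in CHP-212 for 28 and in SK-N-BE(2) for 22. On GFP arrays alone 47 differed between IMR-32 and CHP-212 (26 higher and 21 lower in IMR-32), against 31.1% of all probes, and on FOXP1 arrays alone 46 (17 higher and 29 lower), against 32%. The factors were chosen on differences between these cultures, and a probe bright in 1 line alone passed the filter, so nothing is read from these counts or their split. With the slide as a random block (correlation 0.286) the 3 contrasts gave 46, 39 and 41 factors. Each line is 1 source of cells, grown as 2 cultures.

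NR0B1, a repressor of steroid synthesis in adrenal and gonad, had a level of its own in each of the 3 lines. Over the 8 arrays of a line its lowest, median and highest log2 levels were 2.99, 3.97 and 4.29 in CHP-212, -3.04, -2.48 and -2.19 in IMR-32, and -9.19, -8.02 and -5.05 in SK-N-BE(2), where 1 of 8 arrays was above background. The 3 lines did not overlap, and limma gave a difference of -6.26 (SE 0.44, adjusted p = 4.0e-11) for IMR-32 minus CHP-212. Its contrasts with SK-N-BE(2) are given as levels alone, since NR0B1 passed the filter on dim probes there only through the other line. TFAP2B had the opposite order of medians. It was lowest in CHP-212 (-8.90, -6.48 and -5.99, 1 array above background) and had its highest median in SK-N-BE(2) (3.80, 4.26 and 4.57), and ran from -1.95 to 4.80 in IMR-32, whose 2 cultures differed. TFAP2B passed the filter on dim probes only through the other lines, so its contrasts with CHP-212 are given as levels, with no size or test.

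POU4F1 was highest in IMR-32. It had means of 0.67 in IMR-32, -3.40 in SK-N-BE(2) and -6.36 in CHP-212, where 2 of 8 arrays were above background, and the limma difference was 4.07 for IMR-32 minus SK-N-BE(2). HEYL was above SK-N-BE(2) by 4.43 in IMR-32 and by 3.74 in CHP-212. IMR-32 and CHP-212 were at -0.82 and -2.40 in FOXP1 cells and at -3.04 and -2.83 in GFP cells.

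HOXD10, HOXD11, HOXA10, FOXL2, KLF2 and ZIC1 had their highest means in CHP-212. HOXD10 lay between 3.21 and 3.66 on its 8 arrays, against means of -2.32 in IMR-32 and -3.22 in SK-N-BE(2), with limma differences of -5.73 and, for CHP-212 minus SK-N-BE(2), 6.62 (SE 0.19 each, adjusted p = 5.5e-17 and 5.2e-18). HOXD11 was at 0.07 to 0.54 in CHP-212 and above background on 2 IMR-32 and 4 SK-N-BE(2) arrays. HOXA10 was at -1.78 to -1.17, against 4 IMR-32 arrays and 1 SK-N-BE(2) array above background. With so few arrays above background in the other lines, neither sizes nor tests are given for HOXD11 and HOXA10. For these 3 factors the FOXP1 and GFP cells of CHP-212 differed by -0.11, -0.07 and -0.14, and the groups overlapped.
FOXL2, a forkhead factor of the ovary, had a mean of -2.10 in CHP-212, while in IMR-32 0 arrays were above background. FOXL2 passed the filter on dim probes only through CHP-212, so no size or test is given. KLF2 had means of 1.34 in CHP-212, -4.25 in SK-N-BE(2) and -4.55 in IMR-32. The IMR-32 mean averages cultures that differed by 3.02, while the SK-N-BE(2) cultures overlapped (-0.56, not called). In GFP cells KLF2 was at -6.06 in IMR-32 and -3.97 in SK-N-BE(2), and in cells labelled FOXP1 at -3.04 and -4.53. ZIC1 had a mean of -1.59 in CHP-212, while in SK-N-BE(2) 0 arrays were above background, so no size is given for that contrast either.

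FOXD1 and ETV1 had their highest means in SK-N-BE(2), in FOXP1 and GFP cultures alike. FOXD1, a factor of kidney stroma, lay between 0.26 and 1.38 there, against means of -3.20 in IMR-32 and -5.39 in CHP-212. The limma differences were -4.10 for IMR-32 and -6.30 for CHP-212 minus SK-N-BE(2) (SE 0.19 each). Only 4 of 8 CHP-212 arrays were above background for FOXD1, so the size of the second is uncertain. FOXN4, a factor of the retina and spinal cord, had a mean of -5.79 in CHP-212, with 4 of 8 arrays above background. SK-N-BE(2) and IMR-32 were at 0.68 and -2.65 in cells labelled FOXP1, and in GFP cells at -0.13 ± 0.33 and 0.00 ± 0.11 (SD, n = 4), within the spread of the arrays. FOXC1 was at 3.92 in both cultures of SK-N-BE(2), above the GFP cells of CHP-212 (1.77) and IMR-32 (1.65), while among FOXP1 cells CHP-212 was at 4.07 and IMR-32 at -2.98. ETV1 had means of -5.47 in IMR-32 and -1.10 in SK-N-BE(2), a difference of -4.36. GATA4 had its lowest mean in CHP-212 (-6.07, with 2 of 8 arrays above background). In GFP cells GATA4 was at -1.52 in SK-N-BE(2) and -3.43 in IMR-32. In cells labelled FOXP1 it was at -1.99 and -0.79, so the order of these lines turned with the culture.

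**Figure D5:**
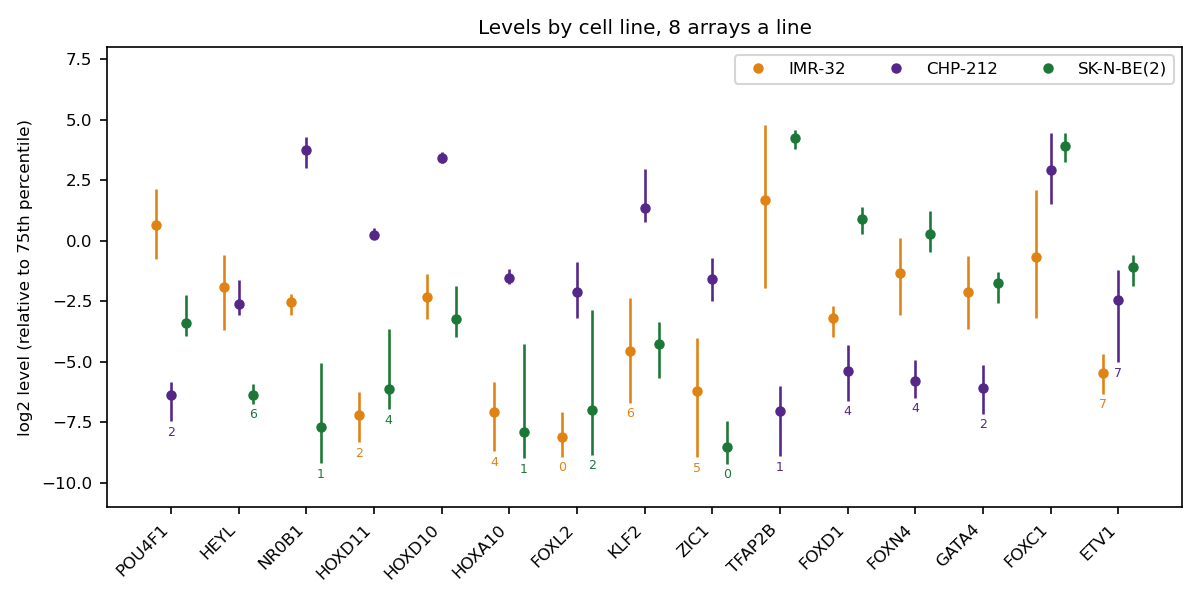
Log2 level (vertical axis) of 15 factors in 3 lines, with the mean of 8 arrays as a point and a line from the lowest to the highest array; small numbers give how many of 8 arrays were well above background where not all were. NR0B1, HOXD10 and HOXD11 are highest in CHP-212, POU4F1 in IMR-32, and FOXD1 and ETV1 in SK-N-BE(2).

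No factor passed limma's test for a change with time. The change from 0 to 12 h and from 24 to 72 h was tested within slides, over 6 cultures, and the step from 12 to 24 h, which lies between slides, was not tested. From 0 to 12 h, 2.09% of 33008 probes changed at an adjusted p under 0.05 in limma, and 0 of these without SK-N-BE(2), while 0 of the 59 factors tested did, with 3 at an unadjusted p under 0.05. FOXF1 was lower at 12 h in 6 of 6 cultures (-0.38, SE 0.13, limma adjusted p = 0.267), and FOXO4 (0.54) and FOXB1 (0.64) were higher in 5 of 6. From 24 to 72 h, 0% of 34036 probes changed, and 0 of 61 factors, with 7 at an unadjusted p under 0.05 in limma. DLX1 (-0.72), HEY1 (-0.42) and KLF11 (-0.38) were lower at 72 h in 6 of 6 cultures, each with a limma adjusted p of 0.639. The change with time was not called as different between FOXP1 and GFP cultures either, with 0% of probes and 0 factors called by limma in both intervals and 5 and 2 factors at an unadjusted p under 0.05. This difference of differences rests on 3 cultures a side, and a p that misses the threshold does not show that the cultures changed alike. On simulated data the test found only 55 (0 to 12 h) and 57 (24 to 72 h) of 200 probes changed by 2 on the log2 scale. POU2F2 had the lowest of these from 24 to 72 h (-2.03, adjusted p = 1.0), with the 24 h array labelled FOXP1 in SK-N-BE(2) among its values.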

How the data were processed

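Expression was measured on 24 one-colour arrays, and per the file headers the authors' software (Feature Extraction 10.7.3.1) made the deposited processed signal intensity, background-subtracted and detrended within each array. A second deposited table of intensity values was not described. Its columns share their sorted values to within 0.088% and the rank order of the processed signal (Spearman's rho 1), so it was used as a quantile-normalized alternative. Control spots and 311 outlier spots were left out, and 1 spot was saturated. Columns of fold changes and p-values in the study's lists were not used. Levels are log2 of the processed signal minus the array's own 75th percentile. FOXP1 and GFP cells were compared with limma 3.58.1 (R 4.3.3), 4 arrays against 4 and unpaired as in the methods. Lines were contrasts over all 24 arrays, and time points were compared with the culture as a block, for probes well above background on at least 6 of 12 arrays. A line contrast used probes well above background on at least 4 of 8 arrays of a line. All were two-sided. The tables came from Python 3.11.15 with pandas 2.3.3, scipy 1.17.1 and numpy 2.4.6, and the figures from matplotlib 3.10.9.

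The factors and lists were chosen with earlier results of these data known. Factors named with values are those on 2 or 3 lists, the 5 highest and 5 lowest differences per line among factors well above background on all 8 arrays, the 4 highest and 4 lowest called per pair of lines, those changed with time and those above background nowhere, with others as examples of their family. Some factors are counted but not reported here by name. A fold against a group with 0 arrays above background is a lower bound, computed against the dimmest signal that passed the background mark. Signal over background stands for depth here, and the number of arrays limits the precision. The 0 h to 72 h arrays of FOXP1 and GFP cells that share a time point share a slide. Their deviations from the group means correlated by 0.375 to 0.601 in IMR-32, 0.0534 to 0.549 in CHP-212 and 0.369 to 0.67 in SK-N-BE(2). Each fit was tested on simulated data. Alternatives covered the background correction (normexp with an offset of 50, on the median spot signal), normalization, filter, blocks, test, time points, slides and single arrays, and the use of slides alone, of 24 and 72 h alone and of lines without SK-N-BE(2) was chosen after seeing the data.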

Additional observations from a re-analysis of the deposited data

Results flagged for a closer look

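In 10 of 134 groups of 4 arrays examined, 1 array stood apart from the other 3, where chance gives about 1 group in 20. In IMR-32 GFP cells, FOXC1 reached a log2 level of 2.09 at 12 h (others 1.45 to 1.53), FOXL2 -7.56 at 12 h (others -8.50 to -8.35, with 0 arrays above background), TBX4 -4.15 at 72 h (others -4.88 to -4.82) and ZIC1 -4.97 at 0 h (others -4.10 to -4.01). In CHP-212 FOXP1 cells, FOXJ3 was at 1.08 at 12 h (others 1.61 to 1.69), KLF15 at -2.49 at 12 h (others -1.51 to -1.34) and NR0B1 at 3.84 at 0 h (others 2.99 to 3.09). POU3F4 was at -2.47 at 24 h in CHP-212 GFP cells (others -5.23 to -4.78). On the SK-N-BE(2) array labelled FOXP1 at 24 h, KLF4 was at -3.83 (others -4.95 to -4.86) and LHX9 at -2.82 (others -3.19 to -3.18).

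For 11 factors, in 15 pairs of lines, FOXP1 cells were higher at every time point in 1 line and lower at every time point in the other. The difference between the lines was not tested. The factors were chosen for such differences, no share over all probes was taken, and directions in SK-N-BE(2) are those of the labels. Both sides were called for TBX1, FOXC1, DLX4 and ZIC1 between IMR-32 and CHP-212, and for LHX9 between IMR-32 and SK-N-BE(2). In the other pairs at least 1 side was not called, such as KLF4 in CHP-212 (0.67) and GATA6 (-0.81), GATA4 (-0.47) and POU3F2 (0.57) in SK-N-BE(2). Between IMR-32 and CHP-212 the log2 differences of FOXP1 and GFP cells lay -7.67 apart for TBX1, -6.93 for FOXC1, -6.00 for DLX4, -5.08 for ZIC1 and -3.98 for KLF4. Between IMR-32 and SK-N-BE(2) they lay 7.59 apart for GATA6, 3.1 for GATA4, 2.12 for SOX30, -5.12 for POU3F2, -3.41 for LHX6 and -2.39 for LHX9. Between CHP-212 and SK-N-BE(2) they lay 3.33 apart for DLX4, 3.27 for TBX1, 1.10 for SOX30 and -1.56 for LHX6.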

How the results depend on the processing

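With the normexp background correction, the 44 factors called in IMR-32 became 19 (11 higher, 8 lower), ETV1 and TBX4 turned from -1.17 and -1.26 to 0.15 and 0.033, and the contrasts of lines called 31 (IMR-32 minus CHP-212), 25 (IMR-32 minus SK-N-BE(2)) and 27 factors (CHP-212 minus SK-N-BE(2)). When each probe had to pass the background mark on every array, which tests fewer probes, those contrasts called 13, 9 and 14. The slide of 0 and 12 h alone called 29 factors in IMR-32 and 0 in CHP-212, and each slide alone called 0 in SK-N-BE(2), with 23 and 9 factors at an unadjusted p under 0.05 in limma. In SK-N-BE(2) the methods' t-test with Benjamini-Hochberg called 2, and 12, 24 and 72 h alone 1. Leaving out 1 array at a time gave 39 to 45 factors in IMR-32, 10 to 16 in CHP-212, 2 to 4 in SK-N-BE(2), and 48 to 51, 41 to 44 and 40 to 46 for the lines. The change with time called 0 factors in each of 12 alternatives. With the time point as a replicate block, 45, 15 and 5 factors were called, and 51, 42 and 42 between lines. The methods' t-test on unadjusted p called 44, 16 and 6.

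Over all probes, normexp brought the calls from 4122 to 1455 (926 higher, 529 lower, from 2142 and 1980) for IMR-32, from 997 to 602 for CHP-212, and to 6824, 4949 and 7487 between lines. The same mark on every array gave 627 in CHP-212 and 5110, 3908 and 5495 between lines. The methods' t-test with Benjamini-Hochberg gave 650 for CHP-212 and, for SK-N-BE(2), 121 against 245 (537 on unadjusted p). Leaving out 1 of 6 arrays (all but the 24 h array labelled FOXP1 and the 72 h GFP array) brought SK-N-BE(2) to between 127 and 155, leaving out the 72 h GFP array brought CHP-212 to 620, and the time point as a replicate block raised SK-N-BE(2) to 477. Slides alone gave 2583 probes for IMR-32 (the earlier slide), 90 and 540 for CHP-212 and 6 and 0 for SK-N-BE(2), where 12, 24 and 72 h alone gave 40. The 689 probes that changed from 0 to 12 h became 1725 with normexp, 455 with quantile normalization, 318 without a filter, 166 to 689 with 1 culture left out (166 and 237 without an SK-N-BE(2) culture, 247 without the IMR-32 GFP and 341 without the CHP-212 GFP culture) and 0 without SK-N-BE(2). Quantile normalization turned the split between IMR-32 and CHP-212 from 5094 higher and 6284 lower to 6429 and 5267, and gave 23 and 23 factors. There the median of all probes moved from -0.11 to 0.06. The split of IMR-32 against SK-N-BE(2) turned from 4015 and 4875 to 4533 and 3775, with 23 and 15 factors. That of CHP-212 against SK-N-BE(2) turned from 5730 and 5571 to 5553 and 6222, with 21 and 19 factors. The cause of these changes was not tested beyond what each setting leaves out. A factor near background in a line has no reliable level there, which limits the factors described as too dim, and each group is 1 culture.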
